A study of Homo sapiens with 2 samples.

Results

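Markers of liver cancer stem cells and hepatic progenitors, 10 genes in all, were followed in PLC/PRF/5 cells, namely CD44, PROM1, EPCAM, CD24, ANPEP, ALDH1A1, SOX9, KRT19, AFP and GPC3. They were chosen by symbol and found through their Entrez IDs, and all 10 were among the 27685 genes of the deposited tables. PLC/PRF/5 is an established human hepatocellular carcinoma line. RNA was taken for sequencing after 24 h in the solvent DMSO, or after 24 h in 6 µM JIB-04, a small-molecule inhibitor of Jumonji histone demethylases, with 1 library per condition. A treatment label calls the control untreated, whereas its title and the methods name DMSO, and it was taken as the DMSO control. Both conditions carry the same cell line, so the comparison is of 1 culture system without an untransformed counterpart.

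Liver cancer stem cells are defined by surface antigens and enzymes that are shared with fetal liver and with the progenitors of the bile ducts. CD44, PROM1 (CD133), EPCAM, CD24 and ANPEP (CD13) are cell surface proteins by which such cells are sorted, ALDH1A1 is an enzyme whose activity is used in the same way, and SOX9 and KRT19 mark the biliary and progenitor lineage. AFP and GPC3 are oncofetal proteins, made in fetal liver, silenced in the adult organ and often made again in hepatocellular carcinoma. The comparison answers whether the transcripts of these markers were higher or lower after JIB-04.

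The level of a gene was its TPM, its share of all transcripts after correction for length, summed over its annotated transcripts. Ratios set JIB-04 over DMSO and were taken as log2 after 1 was added to each TPM, and a gene was described where its TPM reached 1 in DMSO or in JIB-04, which held for 14450 genes. Depth was estimated at 28187793 fragments with DMSO and 23721989 fragments with JIB-04. The range given in parentheses after a ratio is its 95% interval, an exact binomial one conditional on the summed fragments of both libraries, and covers counting error only. With 1 library per condition no difference has a replicate check and no test was possible. Fewer cells that carry a marker and less of its RNA per cell cannot be told apart in bulk RNA.

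The labelled cell type was checked against a list of hepatocyte markers, of which 16 of 18 were described. The summed TPM of all 18 was 10503 with DMSO and 6573 with JIB-04, most of it from the keratins KRT8 and KRT18. Haptoglobin (HP) was listed at 0 in both libraries. ALB, the gene of albumin and the defining product of mature hepatocytes, was low at 9.74 and 4.53 TPM, whereas KRT18, an epithelial keratin of hepatocytes, stood at 4484 and 2214 TPM. Of 8 markers of other cell types, 3 were described, and all 8 together had a summed TPM of 115 and 149, most of it from CD68. PTPRC, which defines leukocytes, was listed at 0 in both libraries. The part of these shifts in the marker results was not tested.

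The markers did not move together. ALDH1A1 and ANPEP were lower by 2-fold or more after JIB-04, CD24 was lower within 2-fold, and SOX9, CD44, AFP and PROM1 were higher within 2-fold. Of the 10 genes 8 were described, and KRT19 and GPC3 lay under the minimum in both libraries. Of these 8, 0 were at least 2-fold higher, beside 5.99% of all described genes, and 2 were at least 2-fold lower, beside 6.88%. Their median log2 ratio was -0.13, beside -0.15 over all described genes, with 4 genes above 0 and 4 below. The counting interval lay above 0 for 4 genes and below 0 for 3, and that of EPCAM held 0.

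**Figure D1:**
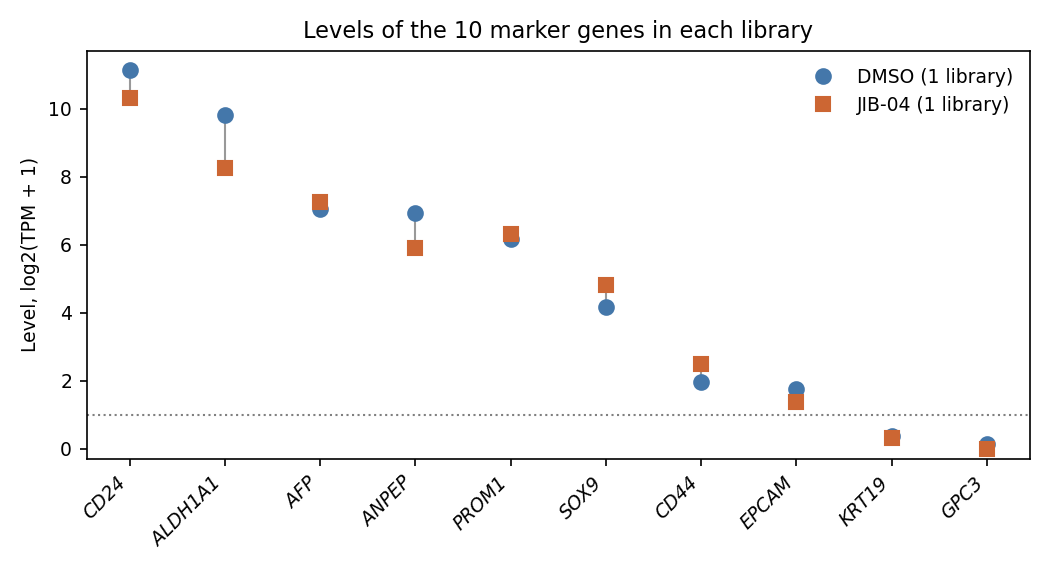
Level of each of the 10 genes as log2(TPM + 1) on the y axis, with DMSO as circles and JIB-04 as squares, 1 library each, ordered by the DMSO level; the dotted line marks a TPM of 1. CD24 at 2260.0 and 1269.9 TPM stands highest in both libraries, and KRT19 and GPC3 lie under the line.

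The order of the levels was nearly the same in both libraries. CD24 came first, ranked 28 among all genes with DMSO and 90 with JIB-04, followed by ALDH1A1 and then AFP. ANPEP stood above PROM1 with DMSO and below it with JIB-04. SOX9, CD44, EPCAM, KRT19 and GPC3 followed in that order in both, and the 161 and 48.9 estimated fragments of CD44 and EPCAM with DMSO set how closely these low levels are known.

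ALDH1A1, the cytosolic dehydrogenase that oxidizes retinal to retinoic acid, had the lowest ratio of the 10. It lies at chr9:75515578-75568233 on the minus strand of hg19, with 13 exons and 1 annotated transcript (NM_000689). It was at 889 TPM with DMSO, from 25079 estimated fragments, and at 302 TPM with JIB-04, from 7023. The JIB-04 level was 33.9% of the DMSO level, with a log2 ratio of -1.56 (from -1.60 to -1.52). Only 1.16% of the described genes had a lower ratio. The gene fell from rank 136 to rank 513 among all genes.

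Every exon of ALDH1A1 had a lower coverage with JIB-04, at 0.173 to 0.395 of the DMSO coverage once scaled as TPM. The last exon, of 619 bases, stood apart from the other 12. Its ratio was 0.173, from an estimated 4392 fragments with DMSO and 626 with JIB-04, against 0.374 over the exons between the first and the last. The ratio of the last exon was thus 0.462 of that of the inner exons. Among 3782 genes with 1 transcript, at least 3 exons and at least 20 fragments both on the last exon and between, the median of this quotient was 0.954, and 2.88% had a quotient of at most 0.5. The same quotient was 1.14 for ANPEP, 0.775 for AFP and 0.735 for SOX9.

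The promoter of ALDH1A1 is shown because this gene changed most. The sequence is the 250 bases before the start in RefSeq, chr9:72953054-72953303 on the minus strand of GRCh38.p14, and capitals mark matches to the motifs searched. The TATA box was searched as TATAA and the CCAAT box by the letters of its name. The GC box was searched as GGGCGG. The core of the hypoxia response element was searched as ACGTG. Each was sought on both strands, in windows that also hold the 50 bases after the start, which are not shown.
ALDH1A1 promoter: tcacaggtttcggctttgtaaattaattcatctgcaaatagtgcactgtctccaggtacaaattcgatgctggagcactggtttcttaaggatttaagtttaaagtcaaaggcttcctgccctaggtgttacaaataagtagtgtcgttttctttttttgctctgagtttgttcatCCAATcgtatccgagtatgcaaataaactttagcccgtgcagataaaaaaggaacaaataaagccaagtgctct
The window held 1 CCAAT box and no match to the other motifs. Of all 35116 promoter windows of the table, 34.6% held a CCAAT box, 20.4% a TATA box, 44.95% a GC box and 21.4% the hypoxia core. Windows were found for 6 of the 10 genes, 12 in all, and not for EPCAM, SOX9, KRT19 and GPC3. Of the 12, 4 held a CCAAT box, 2 a TATA box, 6 a GC box and 3 the hypoxia core. AFP had 2 matches to the TATA box in its window, and ANPEP had 4 GC boxes, of which a pair overlap, in the outer of its windows and 1 TATA box in the inner. A match describes letters only.

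ANPEP encodes aminopeptidase N, a membrane enzyme that trims the ends of peptides and is the antigen CD13. It lies at chr15:90328126-90358072 on the minus strand of hg19, with 21 exons and 1 annotated transcript (NM_001150). It was at 119.6 TPM with DMSO and at 58.3 TPM with JIB-04, from 5197 and 2093 estimated fragments. With JIB-04 the gene kept 48.8% of the DMSO level, with a log2 ratio of -1.02 (from -1.10 to -0.95). All 21 exons had a lower coverage, at 0.325 to 0.611 of the DMSO coverage, and 12 of them were at 0.5 or less. The call rests near the threshold, which lies inside the interval. It stood at -0.88 with log2 ratios centred on well expressed genes, -0.94 with quantile normalization and -0.98 with a pseudocount of 5, each within 2-fold.

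**Figure D2:**
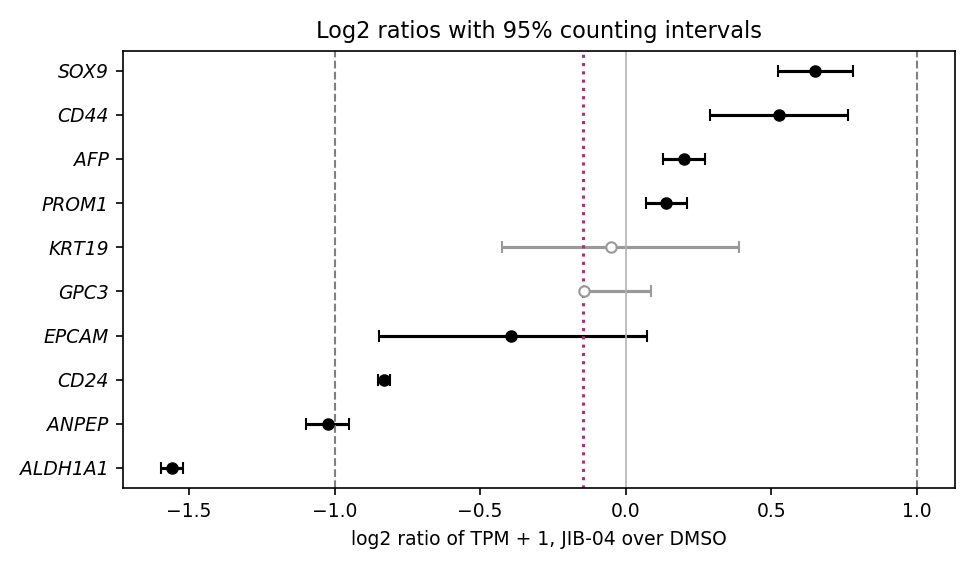
Log2 ratio of TPM + 1, JIB-04 over DMSO, for the 10 genes on the x axis, with bars for the 95% counting interval; open grey points are genes under a TPM of 1 in both libraries, dashed lines mark 2-fold, and the dotted line marks the median of all described genes at -0.15. ALDH1A1 at -1.56 lies beyond the lower line, and ANPEP at -1.02 lies on it.

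CD24, a small glycoprotein anchored in the membrane by lipid and heavily decorated with sugars, was the most abundant of the markers. It was at 2260.0 TPM with DMSO and at 1269.9 TPM with JIB-04. After JIB-04 56.2% of the DMSO level was left, with a log2 ratio of -0.83 (from -0.85 to -0.81). This rests on 53953 and 28741 estimated fragments. The narrow interval reflects the depth of the gene and leaves out any difference between cultures. With fragments scaled to the library total and no correction for transcript length, the ratio of JIB-04 to DMSO was 0.633 against 0.562 in TPM. The estimated mean length of its transcripts was 2005 bases with DMSO and 2302 bases with JIB-04.

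The assignment of CD24 to its 6 annotated transcripts differed almost completely between the libraries. NM_001291739 was estimated at 2239.95 TPM with DMSO, 99.1% of the gene, and at 0.0015 TPM with JIB-04. NM_013230 was estimated at 5.69 TPM with DMSO and at 887 TPM with JIB-04, 69.8% of the gene. NM_001291737 went from 0.53 to 195 TPM and NM_001291738 from 2.46 to 177 TPM. NR_117089, a noncoding form, was at 10.5 and 11.7 TPM, and NR_117090 was at 0.81 TPM and listed at 0. All 6 share a stretch of 2001 bases, and their main exons add between 0 and 436 bases to it at the 5′ end, 2 in NM_001291739 and 274 in NM_013230. The forms thus share most of their bases, and the intervals used here do not cover the step of assigning reads to forms.

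The deposited tables place CD24 at chrY:21152526-21438350 on the minus strand of hg19, whereas the RefSeq table of GRCh38.p14 gives its promoters on chromosome 6. CD24 has near-identical intronless copies in the genome. Its level is therefore uncertain, since reads could have been split among copies, and the same holds for its transcripts.

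PROM1 encodes prominin, a membrane protein of cellular protrusions that is the antigen CD133. It lies at chr4:15969849-16085623 on the minus strand of hg19 with 7 annotated transcripts. It was at 70.8 TPM with DMSO and at 78.0 TPM with JIB-04, from 3364 and 3032 estimated fragments. The level after JIB-04 was 110.2% of the DMSO level, with a log2 ratio of 0.14 (from 0.07 to 0.21). Of 27 exons with at least 10 estimated fragments, 23 had a higher and 4 a lower coverage with JIB-04, at 0.742 to 1.48 of the DMSO coverage. The total of the gene thus moved little.

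The estimated transcripts of PROM1 moved far more than the total. NM_001145848 was at 57.7 TPM in DMSO and 18.7 TPM in JIB-04, with a log2 ratio of -1.58 (from -1.69 to -1.46), and its share of the gene was 81.6% and 23.9%. NM_006017 was at 1.45 and 25.0 TPM, with a log2 ratio of 3.41 (from 3.18 to 3.63), and its share was 2.04% and 32.0%. These intervals leave out the error of assigning reads to forms. NM_001145848 is annotated from an outer start and lacks an exon of 27 bases, whereas NM_006017 is annotated from an inner start and holds it. NM_001145852 went from 1.29 to 11.3 TPM, NM_001145850 from 1.39 to 10.05 TPM, NM_001145851 from 1.02 to 4.59 TPM and NM_001145849 from 1.10 to 4.004 TPM. NM_001145847, which has an outer start of its own, was at 6.77 and 4.42 TPM. Past 2-fold, 5 of the 7 transcripts were higher and 1 was lower.

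**Figure D3:**
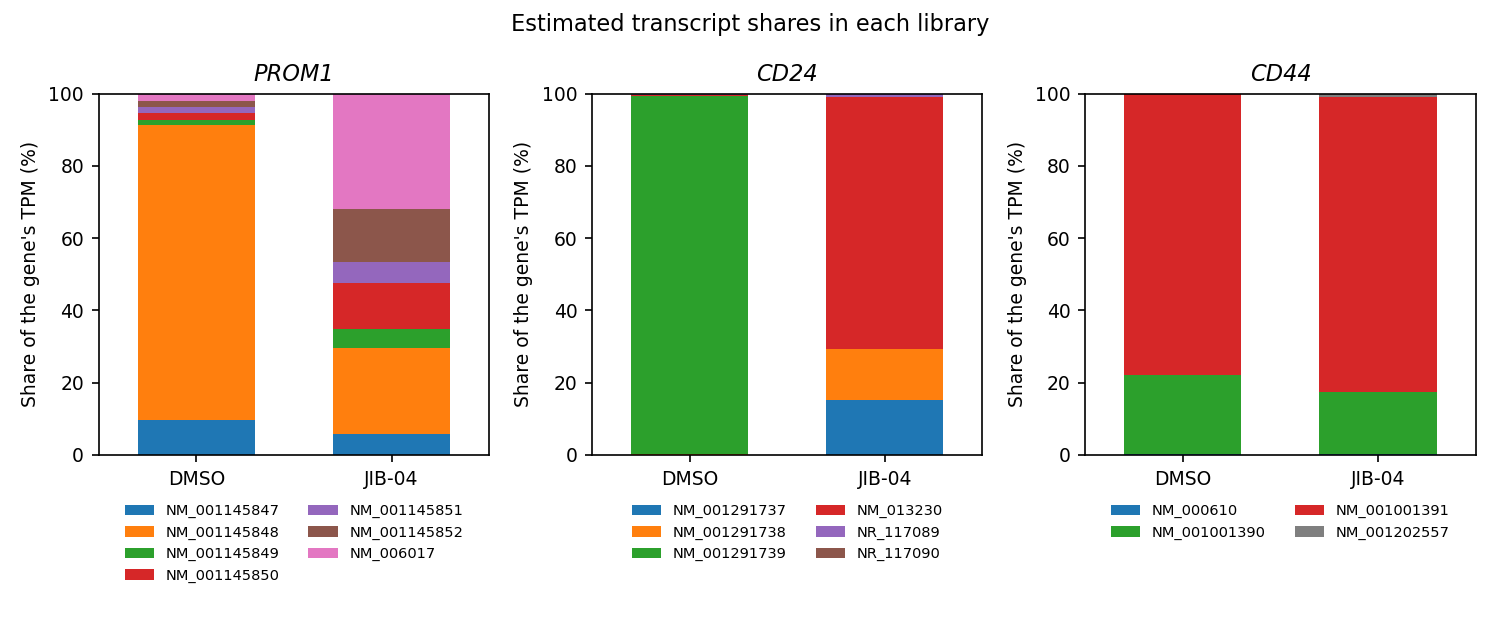
Estimated share of each annotated transcript in the TPM of its gene, in percent on the y axis, for PROM1, CD24 and CD44 in the DMSO and JIB-04 libraries; each colour is 1 transcript, and transcripts under 0.01% in both are left out. NM_001145848 takes 81.6% of PROM1 with DMSO and 23.9% with JIB-04, and NM_001291739 takes 99.1% of CD24 with DMSO and is not visible with JIB-04, while CD44 keeps a similar make-up.

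The coverage of the PROM1 exons did not follow these estimates. The 27-base exon, at chr4:16037358-16037384 of hg19, is held by 3 of the 7 transcripts, and these took 5.55% of the TPM of the gene with DMSO and 50.02% with JIB-04. The coverage of the exon itself was 9.35 and 12.4 per base, or 5.24% and 7.41% of the median of the 24 exons common to all transcripts. The exon is shown because its inclusion separates the forms. It is taken from the GENCODE v29 transcript that matches NM_006017, with 27 of 27 exons of equal length, at chr4:16035735-16035761 on the minus strand of GRCh38.
PROM1 27-base exon: ccagaaactgtaatcttaggtctaaag
In both libraries this sequence was thus rare beside the exons around it. An exon of 24 bases, held by 5 transcripts, had 77.3% and 78.1% of the median common coverage, whereas its transcripts took 96.2% and 72.6% of the TPM. An exon of 69 bases near the 3′ end, held by 3 transcripts, had 85.3% and 81.5% of the median common coverage, against 93.2% and 61.6% of the TPM. In all 3 of these exons the coverage differed between libraries by less than the transcript estimate.

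The outer first exon of NM_001145848, of 23 bases at chr4:16085601-16085623 of hg19, was lower with JIB-04 in coverage too. Its coverage was 91.4 per base with DMSO and 56.0 per base with JIB-04, or 51.2% and 33.6% of the median common exon. The first exon of NM_001145847, of 307 bases, had 1.57% and 1.37%. The promoter windows at the outermost and the innermost RefSeq starts of PROM1 are shown because the transcripts differ in where they are annotated to begin. They lie at chr4:16084024-16084273 and chr4:16076119-16076368 on the minus strand of GRCh38.p14, with the same motifs in capitals.
PROM1 outermost promoter: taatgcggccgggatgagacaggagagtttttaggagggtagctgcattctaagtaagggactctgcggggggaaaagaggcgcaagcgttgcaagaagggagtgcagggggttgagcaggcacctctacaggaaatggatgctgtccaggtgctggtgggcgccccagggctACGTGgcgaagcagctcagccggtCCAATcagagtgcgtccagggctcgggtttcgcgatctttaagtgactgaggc
PROM1 innermost promoter: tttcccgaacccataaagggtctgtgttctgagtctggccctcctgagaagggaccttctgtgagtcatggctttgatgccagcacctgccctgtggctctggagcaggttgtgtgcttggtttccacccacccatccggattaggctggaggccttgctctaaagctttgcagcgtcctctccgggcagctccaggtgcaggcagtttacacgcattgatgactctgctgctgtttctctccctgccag
The outermost window held 1 CCAAT box and 1 hypoxia core, and the innermost held no match to the 4 motifs. The innermost start is the 5′ border of an exon of 432 bases that all 7 transcripts hold with the same borders. In NM_001145848 and NM_001145847 this exon follows an outer first exon, so the bases before it are intron in those forms. Whether transcription begins at this border was not tested.

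**Figure D4:**
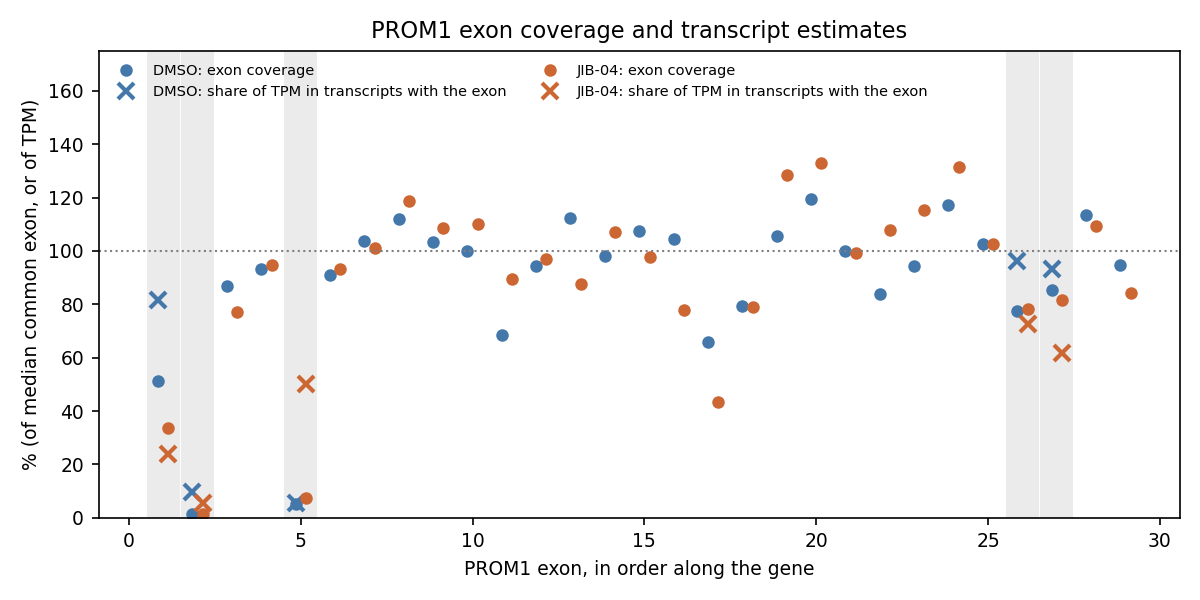
Exons of PROM1 in order along the gene on the x axis; circles give the coverage of each exon as a percent of the median common exon, crosses give the percent of the gene's TPM in transcripts that hold an alternative exon (grey bands), blue for DMSO and orange for JIB-04. At the fifth exon, of 27 bases, the circles lie at 5.24% and 7.41% while the cross of JIB-04 lies at 50.02%.

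CD44, the receptor of hyaluronan, was weakly expressed and higher with JIB-04. It lies at chr11:35160417-35253949 on the plus strand of hg19 with 8 annotated transcripts. It was at 2.89 TPM with DMSO and at 4.61 TPM with JIB-04, from 161 and 210 estimated fragments. The level with JIB-04 amounted to 159.4% of the DMSO level, with a log2 ratio of 0.53 (from 0.29 to 0.76), within 2-fold. The exons did not all share this direction. Of 8 exons with at least 10 estimated fragments, 6 had a higher and 2 a lower coverage with JIB-04, at 0.904 to 2.66 of the DMSO coverage. The coverage ratio was 1.70 (from 1.15 to 2.51) over the 5 common exons before the variable exons, those held by at least 7 of the 8 transcripts, and 1.53 (from 1.17 to 2.004) over the 3 after them. Of these 3 the last exon was higher, at 1.64, and the other two, at 0.996 and 0.904, were not.

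The standard form without variable exons, NM_001001391, was the main transcript of CD44 in both libraries, at 2.25 and 3.76 TPM, or 77.7% and 81.6% of the gene. The form with the variable exons v8 to v10, NM_001001390, found in epithelial cells, was at 0.63 and 0.78 TPM, or 21.9% and 17.0%, with a log2 ratio of 0.13 (from -0.16 to 0.40). NM_000610, the longest form, was at 0.01 and 0.02 TPM. NM_001202557 was listed at 0 with DMSO and was at 0.04 TPM with JIB-04, from 1 estimated fragment. The other 4 were listed at 0 in both libraries. The coverage ratio over the 9 variable exons was 1.43 (from 0.43 to 4.91), from 6.38 and 7.53 estimated fragments, so a change in their inclusion was not detectable at this depth.

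Coverage of the variable exons was confined to the later ones in the DMSO library. Exons 6 to 9 in order along the gene had a coverage of 0 in both libraries. The exon v8 had a coverage of 3.48 and 5.71 per base, v9 5.56 and 4.22, and v10 1.67 and 1.76. Beside them the median common exon had 11.1 and 16.1 per base. The 3 exons are shown because they had most of the coverage of variable sequence in these cells, from the GENCODE v29 transcript that matches NM_001001390, in which 10 of 12 exons had equal lengths. They lie at chr11:35208105-35208206, chr11:35209965-35210054 and chr11:35211246-35211449 on the plus strand of GRCh38.
CD44 exon v8: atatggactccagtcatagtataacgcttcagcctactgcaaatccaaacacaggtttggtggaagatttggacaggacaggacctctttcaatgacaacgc
CD44 exon v9: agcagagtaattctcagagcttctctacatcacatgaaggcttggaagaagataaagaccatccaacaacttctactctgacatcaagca
CD44 exon v10: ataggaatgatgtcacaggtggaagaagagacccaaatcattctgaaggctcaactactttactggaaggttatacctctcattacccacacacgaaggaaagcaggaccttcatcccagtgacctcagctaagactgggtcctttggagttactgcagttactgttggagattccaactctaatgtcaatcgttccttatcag
The exon just before v8, of 132 bases, had a coverage of 0.70 and 0.75 per base.

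EPCAM, an adhesion protein of epithelial cells and hepatic progenitors, was near the minimum. It lies at chr2:47596287-47614167 on the plus strand of hg19 with 1 annotated transcript (NM_002354). It was at 2.39 TPM with DMSO and at 1.58 TPM with JIB-04, from 48.9 and 26.7 estimated fragments. The log2 ratio was -0.39 (from -0.85 to 0.07), so a difference was not detectable at this depth. The 3 exons with at least 10 fragments were all lower.

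SOX9, the transcription factor of bile duct and progenitor cells, had the highest ratio of the 10. It lies at chr17:70117161-70122560 on the plus strand of hg19 with 3 exons and 1 annotated transcript (NM_000346). It was at 16.9 TPM with DMSO and at 27.1 TPM with JIB-04, from 791 and 1047 estimated fragments. Relative to DMSO the level was 160.4%, with a log2 ratio of 0.65 (from 0.52 to 0.78), within 2-fold. All 3 exons were higher, at 1.56 to 2.12 of the DMSO coverage. KRT19, a keratin of bile duct cells, was at 0.29 TPM in DMSO and 0.24 TPM in JIB-04, from 5 and 3.5 estimated fragments, so it was barely detected. KRT7, another keratin among the biliary genes, was at 25.0 TPM in DMSO and 25.6 TPM in JIB-04.

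AFP, the gene of the fetal serum protein alpha-fetoprotein, was expressed in both libraries. It lies at chr4:74301936-74321502 on the plus strand of hg19 with 15 exons and 1 annotated transcript (NM_001134). It was at 131.2 TPM with DMSO and at 150.9 TPM with JIB-04, from 3185.5 and 3025 estimated fragments. In JIB-04 it reached 115.0% of the DMSO level, with a log2 ratio of 0.20 (from 0.13 to 0.27). Of its exons 10 were higher and 5 lower, at 0.671 to 1.38 of the DMSO coverage, so the exons did not share a direction. GPC3, a heparan sulfate proteoglycan of the cell surface, was at 0.11 TPM with DMSO, from 2.99 estimated fragments on NM_001164617, and was listed at 0 with JIB-04. Its other 3 transcripts were listed at 0 in both libraries, and no fold is given.

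**Figure D5:**
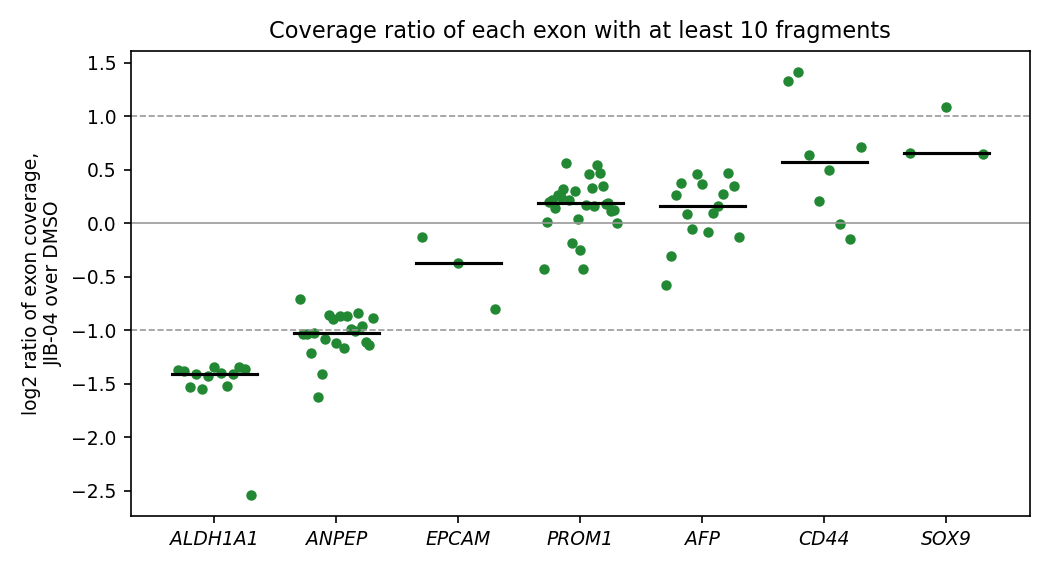
Log2 ratio of exon coverage, JIB-04 over DMSO and scaled as TPM, on the y axis for each exon with at least 10 estimated fragments in both libraries together; points run in order along the gene, black lines are medians and dashed lines mark 2-fold. All 13 exons of ALDH1A1 and all 21 of ANPEP lie below 0, the last exon of ALDH1A1 (a ratio of 0.173) lies lowest, and all 3 exons of SOX9 lie above 0.

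At transcript level the 10 genes had 31 annotated transcripts, of which 18 were described and 7 were listed at 0 in both libraries. Of the 18, 8 were at least 2-fold higher, beside 10.5% of all 30127 described transcripts, and 4 were at least 2-fold lower, beside 13.5%. All 8 that were higher belonged to PROM1 and CD24, and so did 2 of the 4 that were lower. The assignment of reads to the forms of PROM1 and CD24 is uncertain, as given above, and the total of neither gene passed 2-fold. The other 2 were the only transcripts of ALDH1A1 and ANPEP. For genes with 1 transcript, 6 of the 10, the transcript and the gene are the same value. None of the 10 genes shared exonic bases with another annotated gene on either strand.

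The 2-fold changes among other stem cell markers and pluripotency factors went in both directions. Of 21 genes on that list 14 were described, with a median log2 ratio of -0.10. Of the 14, 3 were at least 2-fold higher, beside 5.99% of all described genes, and 1 lower by as much, beside 6.88%. Within 2-fold, ABCG2 (-0.78) and LGR5 (-0.58, near the minimum TPM) were among those lower, and MYC (0.35) among those higher. KLF4, a pluripotency factor that also acts in epithelia, was at 8.45 and 40.1 TPM, with a log2 ratio of 2.12. POU5F1, the pluripotency factor OCT4, was at 3.55 and 17.8 TPM, with a log2 ratio of 2.05, and is uncertain because it has expressed pseudogenes of like sequence. ICAM1, an adhesion protein of the cell surface, was at 193 and 494 TPM, with a log2 ratio of 1.36. LIN28B, which blocks the maturation of let-7 RNAs and is also on the oncofetal list, was at 66.6 and 30.9 TPM, with a log2 ratio of -1.08.

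The lists around the markers are read beside the shares of all described genes, 5.99% higher and 6.88% lower past 2-fold. Of 26 relatives of the 10 genes, 14 were described and 1, KRT18 at a log2 ratio of -1.02, was lower by 2-fold or more, a share near that of all genes. The median of the 14 was -0.04. Among the kin of ALDH1A1, the mitochondrial ALDH2 was at 117 TPM in both libraries, with a log2 ratio of -0.01. KRT8, the partner of KRT18, was at 3212 and 1912 TPM, with a log2 ratio of -0.75. GPC1, a glypican like GPC3, was at 68.7 and 78.8 TPM, with a log2 ratio of 0.20.

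Genes that act with CD44, EPCAM and SOX9 formed 3 further lists. Of 14 ligands, partners and splicing factors of CD44, 11 were described and 0 passed 2-fold in either direction, with a median of 0.09. Osteopontin (SPP1), a ligand of CD44, had a log2 ratio of 0.15, and the protease MMP14, which can cleave CD44, one of -0.24. Ezrin (EZR) and moesin (MSN), which tie CD44 to actin, had ones of 0.66 and 0.29, whereas radixin (RDX) had one of -0.63. Of 12 partners and sheddases of EPCAM all were described and 0 passed 2-fold, with a median of 0.17. Among them were the protease inhibitor SPINT2 (0.20), beta-catenin (CTNNB1, 0.13) and the transcriptional cofactor FHL2 (0.23). Of 14 biliary genes around NOTCH and SOX9 all were described, 1 was higher and 1 lower past 2-fold, near the shares of all genes. HEY1, a NOTCH target, was at 2.197 and 5.76 TPM, with a log2 ratio of 1.08, and KRT23, a keratin, one of -1.14, with a median of 0.14 over the list. JAG1, a NOTCH ligand, had a log2 ratio of 0.54. The summed TPM of 6 biliary and progenitor markers, SOX9, EPCAM and KRT19 among them, was 1028 and 1222, most of it from SPP1.

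The regulators of AFP and GPC3 held both falls and a rise past 2-fold. Of 11, 10 were described, and the median was -0.34. Of the 10, 1 was at least 2-fold higher, beside 5.99% of all described genes, and 4 lower by as much, beside 6.88%. CEBPB, a factor of liver-specific genes, was at 93.3 and 10.9 TPM, with a log2 ratio of -2.99 (from -3.18 to -2.81). The forkhead factors of hepatocytes did not share a direction: FOXA1 had a log2 ratio of -1.55 and FOXA3 one of -1.39, whereas FOXA2 was at 13.0 and 42.7 TPM, with a log2 ratio of 1.65. ZHX2, a repressor of AFP and GPC3, was at 18.9 and 8.61 TPM, with a log2 ratio of -1.05. Of 12 oncofetal genes 10 were described, and 1, LIN28B, passed 2-fold. H19, an imprinted noncoding RNA, had a log2 ratio of -0.88, and HMGA2, a chromatin protein of fetal tissues, one of -0.75. PEG10, an imprinted gene derived from a retrotransposon, had one of -0.31. Others of the list were higher, among them IGF2BP2, at 60.4 and 100.8 TPM with a log2 ratio of 0.73, and TRIM71 (0.25). The median was -0.19.

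Of the 18 hepatocyte markers 16 were described, and their median log2 ratio was -0.58. Of the 16, 0 were at least 2-fold higher, beside 5.99% of all described genes, and 3 lower by as much, beside 6.88%. The 3 were APOB, the structural protein of very low density lipoprotein (-1.62), KRT18 (-1.02) and G6PC1, which releases glucose (-1.10). Others were higher, among them FGB (0.32) and PCK1, at 19.2 and 38.5 TPM. The log2 ratio of PCK1 was 0.97, just within 2-fold once 1 was added to each TPM. Among markers of other cell types CD68, a marker of macrophages, had a log2 ratio of 0.50, and the collagens of fibroblasts COL1A1 and COL3A1 had ones of -0.55 and -0.33.

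The described genes kept their direction under centring, and those that were higher turned with division by GAPDH. With a centring on genes that reached 10 TPM in each library, a shift of -0.15, SOX9 stood at 0.80, CD44 at 0.68, AFP at 0.35 and PROM1 at 0.29, and EPCAM at -0.25, CD24 at -0.68, ANPEP at -0.88 and ALDH1A1 at -1.41. GAPDH, the usual reference gene of qRT-PCR, was itself at 7975 TPM in DMSO and 20148 TPM in JIB-04, with a log2 ratio of 1.34 (from 1.33 to 1.35). Divided by GAPDH, SOX9 stood at -0.61, CD44 at -0.46, AFP at -1.12 and PROM1 at -1.17, each of which turned direction, and 6 of the 8 described genes were at least 2-fold lower.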

How the data were processed

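RNA-seq of PLC/PRF/5 cells comprised 1 library per condition, grouped by library title. Tools listed in the notes of the submitters are HISAT2 2.0.5 and Bowtie2 2.2.6, StringTie 1.3.3b, Trimmomatic 0.32 and FastQC 0.11.5, with hg19 (GRCh37) as the build. Per the file headers, StringTie was run for annotated RefSeq transcripts alone and as for a stranded library. The authors deposited coverage, FPKM and TPM of each transcript and coverage of each exon, and no counts of reads were used.

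Symbols came from a RefSeq table of GRCh38.p14 and matched 27559 of 27685 Entrez IDs. TPM was summed per gene. Exon coverage was summed over the transcripts that share an exon. The number of fragments was taken as coverage times length divided by 202 bases, which in both libraries was the mode of the aligned bases on weak transcripts. This is an estimate, since 31.0% and 29.8% of weak genes with 1 transcript lay within 2 bases of a whole multiple. A gene was called at 2-fold. Named genes were the 10 markers with all their transcripts, every gene past 2-fold in each further list, filled up to 4 by mean TPM, and GAPDH. A gene named by this rule is not reported here. The markers and lists were chosen with earlier results of these data known. The comparison of last exons was chosen after exon values had been seen. Alternatives comprised a pseudocount of 0.1 or 5, the absence of a filter, a TPM of at least 5, FPKM, median scaling, quantile normalization, division by GAPDH, the most abundant transcript, thresholds of 1.5-fold and 3-fold and, added later, fragments scaled to library depth without length. The interval and the calls were tried on simulated counts drawn with the counting error that the interval assumes. Variation between cultures and the error of estimating fragments were not simulated, so this is no check of either. Python 3.11.15, numpy 2.4.6, pandas 2.3.3, SciPy 1.17.1 and matplotlib 3.10.9 were used.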

Additional observations from a re-analysis of the deposited data

How the results depend on the processing

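No paired analysis was possible because each condition has 1 library, and no replicate was left out. Depth limits CD44, EPCAM, KRT19 and GPC3 most. The count of 0 markers at least 2-fold higher held under each alternative except a threshold of 1.5-fold, which gave 1. The count of 2 at least 2-fold lower became 1 with a pseudocount of 5, with log2 ratios centred on well expressed genes and with quantile normalization, 6 with division by GAPDH, 4 with the most abundant transcript, 3 at 1.5-fold and 0 at 3-fold. The median log2 ratio of the markers, -0.13, became -0.018 with a pseudocount of 5, -0.35 with a TPM of at least 5, 0.11 with FPKM, 0.0204 with that centring, -1.15 with GAPDH and -0.71 with the most abundant transcript. A TPM of at least 5 kept 6 markers and FPKM kept 7, against 8 in the main setting, so their medians rest on other sets. With FPKM all 10 markers kept the sign of their ratio. With the most abundant transcript PROM1 stood at -1.58 and CD24 at -11.13, since this alternative follows 1 estimated form. Over the remaining alternatives with no GAPDH, ALDH1A1 ranged from -1.65 to -1.41, ANPEP from -1.05 to -0.88 and SOX9 from 0.55 to 0.82.

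Over all genes, the counts of 994 lower and 865 higher became 409 and 439 with a pseudocount of 5 and 9815 and 131 with GAPDH. They became 3030 and 1853 at 1.5-fold and 154 and 318 at 3-fold. With that centring 627 were lower and 1135 higher. The median of all genes, -0.15, became 0 with no filter, 0.0032 with that centring and -1.31 with GAPDH. Of the transcripts of the markers, 4 lower became 8 with GAPDH and 1 at 3-fold. Shares of transcripts were the same in coverage and FPKM as in TPM. This follows by construction, since these units differ by a constant factor within a library, and is no check of the shares.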
